A study of Homo sapiens with 12 samples.

Results

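Polycomb proteins keep chosen genes silent through 2 kinds of complex, and the 9 genes described here encode members of both. They were CBX2, CBX6, CBX7 and CBX8, BMI1 and RING1 of Polycomb repressive complex 1 (PRC1), and EZH2, EED and SUZ12 of Polycomb repressive complex 2 (PRC2). Each gene was found by its Ensembl identifier, with the version dropped, and all 9 of 57820 gene rows were present in both count tables. The set was assembled with measured values of these data in view: CBX2 was chosen for its high counts in siBACH1 against siCont, and its relatives were chosen to be set beside it. Levels and differences of the 9 genes in the siRNA and the knockout comparison are therefore given as a description, without p-values. Where such a gene is said to be called (adjusted p below 0.05), that too is a description, and nothing is read from it.

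PRC2 places methyl groups on lysine 27 of histone H3, with EZH2 as the catalytic subunit, SUZ12 as the scaffold and EED as the subunit that binds the methylated product. Canonical PRC1 reads that mark through the chromodomain of a CBX protein and ubiquitinates histone H2A through a RING1 or RNF2 catalytic subunit paired with a PCGF protein such as BMI1. A canonical complex holds a single CBX protein, so these CBX proteins are alternatives to one another, and in carcinoma cells EZH2, BMI1 and several CBX proteins are studied for their part in growth and in silencing of CDKN2A.

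The cells were AsPC-1, an established line of human pancreatic ductal adenocarcinoma, and RNA was sequenced in 12 libraries, 3 in each of 4 groups. siBACH1 cells were transfected with siRNA against BACH1, a transcriptional repressor of heme and antioxidant genes, and siCont cells are their labelled control, both harvested 24 hours after transfection. sgBACH1 cells were infected with a lentiCRISPR v2 virus carrying a guide against BACH1, sgCont cells are the labelled control, and both were selected in 10 µg/ml puromycin. All groups thus share the line, and each pair shares its delivery method. The series asks which genes BACH1 acts on in pancreatic cancer cells. As a model, the knockout rests on 1 guide, and the labels do not say whether the selected cells were a pool or a clone or how long they were grown. The sources used here give no siRNA sequence and no control sequence. Nothing in the labels says that replicates came from separate cultures, so the spread between them may be technical.

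Depth was 13099706 to 21478886 counts per library. BACH1 itself stood at 226.6 CPM (a gene's reads relative to the scaled total of its library) in siCont and 25.61 in siBACH1, and at 281.4 in sgCont and 201.9 in sgBACH1, so its RNA remained abundant in the knockout cells. HMOX1, the BACH1-repressed gene of heme breakdown, went from 6.57 to 172.5 CPM and from 9.06 to 477.3 CPM. All 7 ductal carcinoma markers were detected, with summed levels from 11290 to 20620 CPM. These sums were 12170 to 13660 in sgBACH1 and 18900 to 20620 in sgCont, and they are mostly KRT8, KRT18 and KRT19. The list did not move as a unit: KRT7, KRT8, KRT18 and KRT19 were lower in sgBACH1 than in sgCont, while EPCAM, MUC1 and CDH1 were higher. Endocrine INS, GCG and SST were at 0 counts in every library, and summed endothelial and acinar markers stayed at or below 0.894 and 0.792 CPM. The summed fibroblast list, 45.73 to 355.6 CPM, was almost all LUM, and the leukocyte list reached 663.8 to 809.3 CPM in sgBACH1 against 55.88 to 71.86 in sgCont through LYZ, while PTPRC, which marks leukocytes in general, did not exceed a mean of 0.775 CPM in any group. siCont replicate 2 stood apart: its chi-square per degree of freedom against the other siCont libraries was 30.5 and 35.8, compared with 8.89 between those. In bulk RNA, fewer cells of a type and less RNA per cell cannot be told apart.

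The 2 strings of 7 bases searched for in 3′ untranslated regions (3′ UTRs) are shown first because many genes carrying them fell in the siRNA comparison. They are AACATTA and ACATTAA on the transcript strand, which overlap where AACATTAA occurs, and they were noticed in earlier work on these data. At least 1 of them occurred in 24.7% of the 11651 tested genes with an annotated 3′ UTR, in 54.5% of those that fell with siBACH1, in 13.1% of those that rose and in 20.6% of those not called. In the knockout comparison the shares were 24.8%, 23.9%, 26.8% and 24.6%. Of the 9 Polycomb genes, BMI1, CBX7 and SUZ12 carried a match and the other 6 did not, although the 3′ UTR of CBX6, at 4759 bases, is longer than that of any of these 3. The matches of the 9 genes lie at chr10:22329655-22329681 (plus strand) for BMI1, at chr22:39130784-39130810 (minus strand) for CBX7, and at chr17:32000094-32000120 and chr17:32000967-32000993 (plus strand) for SUZ12. For comparison, the first match in each of 5 other Polycomb genes that fell with siBACH1 lies at chr12:42235700-42235726 (minus strand, YAF2), chr10:96987106-96987132 (plus, LCOR), chr10:91278880-91278906 (plus, PCGF5), chr3:170096233-170096259 (minus, PHC3) and chr1:93137029-93137055 (plus, MTF2). Coordinates are GRCh38 with GENCODE 29 annotation, and each range covers the whole printed sequence, the match with its flanking bases. Sequences run 5′ to 3′ along the transcript, and capitals mark the 7-base match.
BMI1: ttttgtagtgACATTAAatttggctat
CBX7: tattaaaaatACATTAAagatgattta
SUZ12, upstream match: cactactggcACATTAAcaagcaccaa
SUZ12, downstream match: atttgtttttACATTAAatgtttattt
YAF2: tagtggtggaAACATTActtgaggagg
LCOR: agagctacctACATTAAtaaaactgct
PCGF5: attattctgtAACATTAgagcacaata
PHC3: ttattcagatAACATTAatattctgct
MTF2: tgtaggactgAACATTAtgttcactgc
A match describes these letters only. Whether the siRNA bound any of them was not tested, because the sources used here do not give its sequence.

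Per length, the CBX reader CBX6 had the highest mean of the 9 in all 4 groups, and CBX2 had the lowest in every group except siBACH1, where CBX7 was lowest (1.95 against 2.26 CPM per kilobase for CBX2). Length here is that of the merged exons of every annotated transcript, so ranks between genes depend on it. In plain CPM the siBACH1 means were 14.57 for CBX7, 12.84 for CBX2 and 10.46 for CBX8, a different order. On the scale of CPM per kilobase of exon, siCont means were 14.7 for CBX6, 13.7 for EZH2, 12.8 for RING1, 9.64 for SUZ12, 9.23 for BMI1, 3.97 for EED, 1.93 for CBX7, 1.73 for CBX8 and 0.280 for CBX2 (n = 3 each). Libraries of CBX6 overlapped with those of EZH2, as did SUZ12 with BMI1 and CBX7 with CBX8, while EZH2 (13.28 to 14.58) lay just above RING1 (12.38 to 13.16), and EED and CBX2 were each separate from their neighbours. In sgCont the means were 23.1 for CBX6, 11.3 for EZH2, 9.86 for SUZ12, 5.65 for BMI1, 2.77 for EED, 2.50 for CBX7, 1.83 for CBX8 and 0.746 for CBX2, and RING1 libraries had 13.7, 10.8 and 11.5. The order was thus nearly the same in both controls, with RING1 and EZH2 exchanged; their libraries overlapped in sgCont but not in siCont. The control groups differ in treatment and in experiment, which cannot be told apart.

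**Figure D1:**
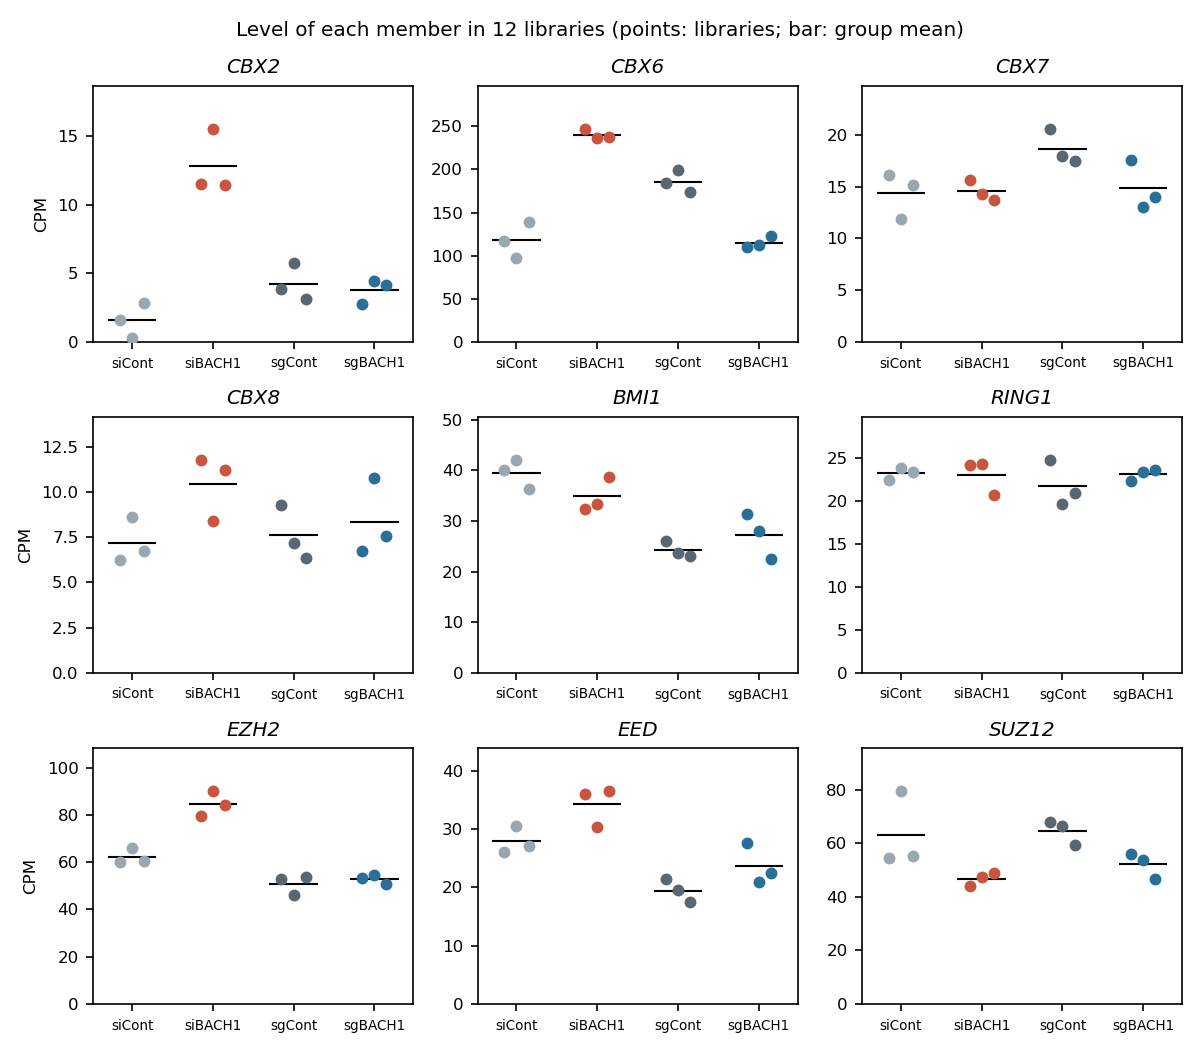
CPM of each of the 9 Polycomb genes in the 12 libraries, by group, on a linear axis of its own for each gene; points are libraries and bars are group means. The CBX2 points of siBACH1 lie between 11.48 and 15.56, above the other 3 groups, and the siCont points spread from 0.314 to 2.86.

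CBX2, besides binding methylated H3, is known for compacting chromatin. The gene lies at chr17:79778132-79787983 on the plus strand (ENSG00000173894). Its counts were 190, 312 and 251 in siBACH1 replicates 1 to 3, against 23, 4 and 49 in siCont. On the CPM scale these were 11.49, 15.56 and 11.48 against 1.61, 0.314 and 2.86. Every siBACH1 library stood above every siCont library, and siCont replicate 2, the library that stands apart, was the lowest of all 12. The fitted log2 fold change was 2.94 ± 0.46 (standard error), a 7.68-fold higher level. Without siCont replicate 2 it was 2.49, and without siCont replicate 3 it was 3.68, so the size moved by more than 1.5-fold with the latter.

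In the knockout experiment the CBX2 levels were 2.80, 4.45 and 4.17 CPM for sgBACH1 libraries, against 3.84, 5.79 and 3.10 CPM for sgCont libraries. These groups overlapped, and the log2 fold change was -0.15 ± 0.38, not called. The standard error leaves room for a change in either direction. The mean levels were 12.8 ± 2.35 CPM in siBACH1, 1.60 ± 1.27 in siCont, 3.81 ± 0.881 in sgBACH1 and 4.24 ± 1.39 in sgCont (SD, n = 3). The siBACH1 level was thus above that of both knockout-experiment groups, and the siCont libraries were all below the sgCont mean.

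CBX6, a reader of canonical PRC1, was higher in siBACH1 than in siCont and lower in sgBACH1 than in sgCont. It lies at chr22:38861450-38872314 on the minus strand. Its levels were 247.2, 236.2 and 237.0 CPM in siBACH1 and 117.0, 97.8 and 139.0 CPM in siCont. In the knockout experiment they were 110.5, 112.0 and 123.0 CPM in sgBACH1 and 184.2, 198.7 and 173.8 CPM in sgCont. The groups were separate in each experiment, and siBACH1 was the highest of all 4. The log2 fold changes were 1.02 ± 0.12 with siRNA and -0.69 ± 0.08 with the guide, a 2.03-fold higher and a 1.61-fold lower level. The siRNA value ran from 0.90 to 1.15 and the knockout value from -0.74 to -0.64 when single libraries were left out.

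CBX7 and CBX8, 2 further readers, were not called in either comparison. CBX7 (chr22:39120167-39152674, minus strand) had 13.72 to 15.66 CPM in siBACH1, 11.85 to 16.15 in siCont, 13.03 to 17.55 in sgBACH1 and 17.45 to 20.59 in sgCont, with log2 fold changes of 0.01 ± 0.15 and -0.33 ± 0.18. Its exons share 17.9% of their length with the antisense gene AL031846.2, and whether counting used strand is not given, so its counts are uncertain. CBX8 (chr17:79792132-79801683, minus strand) lies next to CBX2 and had 8.38 to 11.79 CPM in siBACH1, 6.22 to 8.63 in siCont, 6.76 to 10.78 in sgBACH1 and 6.37 to 9.29 in sgCont. Its log2 fold changes were 0.54 ± 0.20 and 0.13 ± 0.27; without siCont replicate 2 the siRNA value was 0.68 and was called. CBX7 was thus level in the siRNA experiment, and the CBX8 groups overlapped by a single siBACH1 library.

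CBX2 was set against its paralogs CBX6, CBX7 and CBX8 within each library, a ratio that does not depend on scaling between libraries. The log2 ratio of CBX2 to the geometric mean of the 3, per kilobase, was -1.49, -0.82 and -1.38 in siBACH1 and -3.65, -5.79 and -2.92 in siCont. It was -2.91, -2.34 and -2.34 in sgBACH1 and -2.94, -2.20 and -2.96 in sgCont. The siBACH1 ratios were separate from all others, and those of the knockout experiment overlapped. The mean difference was 2.89 in the siRNA experiment (2.05 without siCont replicate 2 to 3.49 without siCont replicate 3) and 0.17 in the knockout experiment (0.04 to 0.42 on leaving out single libraries).

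As a share of the summed CPM per kilobase of these 4 CBX genes, CBX2 made up 6.18% ± 1.22 in siBACH1, 1.41% ± 1.01 in siCont, 3.51% ± 0.723 in sgBACH1 and 2.62% ± 0.696 in sgCont (SD, n = 3). CBX6 was the main share in each group, at 81.7%, 78.7%, 75.4% and 82.0% in the same order. The CBX7 share was 5.33%, 10.4%, 10.5% and 8.89%, and the CBX8 share 6.85%, 9.55%, 10.6% and 6.49%. In siBACH1 the CBX2 share was thus of the size of the CBX7 and CBX8 shares, and in the other 3 groups its mean was below both. The shares depend on the merged exon lengths used.

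**Figure D2:**
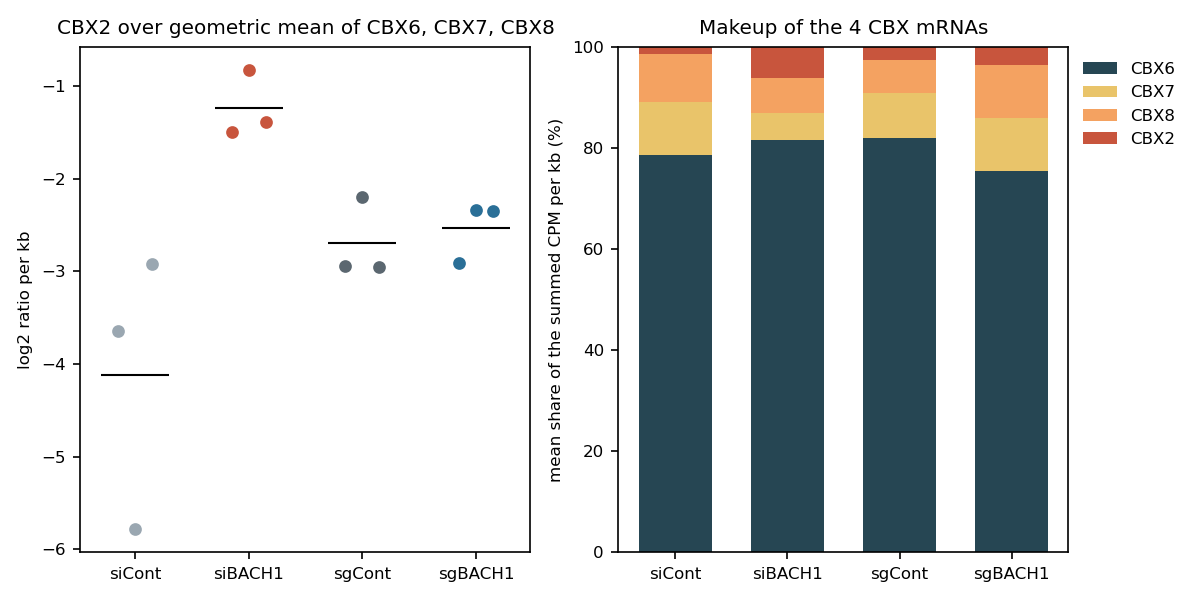
Log2 ratio of CBX2 to the geometric mean of CBX6, CBX7 and CBX8, each in CPM per kilobase, in every library with group means as lines (left), and the mean share in percent of each of the 4 CBX genes in their summed CPM per kilobase as stacked bars (right). siBACH1 ratios lie between -1.49 and -0.82 and siCont ratios between -5.79 and -2.92, and CBX6 is the main share in each group.

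Neither gene of the RING-type core of PRC1 was called in either comparison. RING1, a catalytic subunit (chr6:33208495-33212722, plus strand), ranged from 19.64 to 24.86 CPM over all 12 libraries, with log2 fold changes of -0.02 ± 0.11 with siRNA and 0.08 ± 0.16 with the guide. BMI1, the PCGF partner that stimulates the catalytic subunit (chr10:22321211-22331484, plus strand), had 32.41 to 38.74 CPM in siBACH1, 36.33 to 42.14 in siCont, 22.55 to 31.37 in sgBACH1 and 23.05 to 25.99 in sgCont. Its log2 fold changes were -0.18 ± 0.11 and 0.17 ± 0.15, and the groups overlapped in both experiments. Every siRNA-experiment library of BMI1 lay above every knockout-experiment library. BMI1 shares 23.3% of its exon length with the readthrough gene COMMD3-BMI1, which was listed at 0 counts in all 12 libraries, so its counts depend on how shared reads were assigned.

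The PRC2 core did not move as a unit. EZH2, the methyltransferase (chr7:148807383-148884321, minus strand), had 79.52, 90.33 and 84.21 CPM in siBACH1 and 60.06, 65.91 and 60.34 CPM in siCont. In the knockout experiment it had 53.18, 54.44 and 50.97 CPM in sgBACH1 and 52.90, 46.06 and 53.91 CPM in sgCont. The siRNA groups were separate and the knockout groups overlapped. The log2 fold changes were 0.44 ± 0.09, called higher, and 0.05 ± 0.11, not called.

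EED, which binds methylated H3 and stimulates EZH2 (chr11:86244544-86278813, plus strand), had 36.04, 30.33 and 36.59 CPM in siBACH1 and 26.15, 30.45 and 27.05 CPM in siCont. It had 27.60, 20.93 and 22.50 CPM in sgBACH1 and 21.40, 19.50 and 17.45 CPM in sgCont. Each pair of groups overlapped by a single library. The log2 fold changes were 0.30 ± 0.12 and 0.28 ± 0.17, neither called; without siCont replicate 2 the siRNA value was 0.36 and was called.

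SUZ12, the PRC2 scaffold (chr17:31937018-32001045, plus strand), was the member with lower values in both experiments. It had 44.08, 47.49 and 48.85 CPM in siBACH1 and 54.54, 79.65 and 55.20 CPM in siCont. It had 55.99, 53.57 and 46.65 CPM in sgBACH1 and 67.97, 66.41 and 59.27 CPM in sgCont. Treated and control libraries were separate both times, and siCont replicate 2 was the highest library. The siRNA log2 fold change of -0.44 ± 0.15 was not called, but it was called with DESeq2 (-0.44), with no filter on low counts (-0.42) and on leaving out any 1 siCont library (-0.54 without replicate 1, -0.24 without replicate 2 and -0.53 without replicate 3). It stayed uncalled with the other scalings, voom, the filter at 30 counts and the replicate block (-0.44 to -0.40). Leaving out any 1 siBACH1 library also left it uncalled (-0.47 to -0.40). Nothing is read from these calls. The knockout value of -0.31 ± 0.11 was called lower, a call lost with no filter (-0.31) and on leaving out any 1 library other than sgCont replicate 3 (-0.36 to -0.24). SUZ12 is also the only member with 2 of the 3′ UTR matches printed above.

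With siBACH1, 3 of the 9 genes were called higher (CBX2, CBX6 and EZH2), none lower and 6 were not called. The background in that fit was 10.9% of 14591 tested genes called higher and 13.0% called lower by edgeR's quasi-likelihood test at an adjusted p below 0.05. Groups did not overlap for 4 of the 9 (SUZ12 besides these 3), and over all tested genes for 42.6%. With sgBACH1, none of the 9 was called higher, 2 were called lower (CBX6 and SUZ12) and 7 were not called, beside 11.3% of 14469 genes called higher and 12.3% called lower. Groups did not overlap for 2 of the 9, and over all tested genes for 36.5%. All 9 passed the filter on low counts in both fits. The median log2 fold change of the 9 was 0.30 and 0.05, that of all tested genes 0.01 in each fit, and nothing is read from these counts because the members were chosen on this contrast. Without siCont replicate 2 the number of members called with siBACH1 was 6, with CBX8 and EED higher and SUZ12 lower besides these 3, while the genes called over the whole table went from 3481 to 5121.

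**Figure D3:**
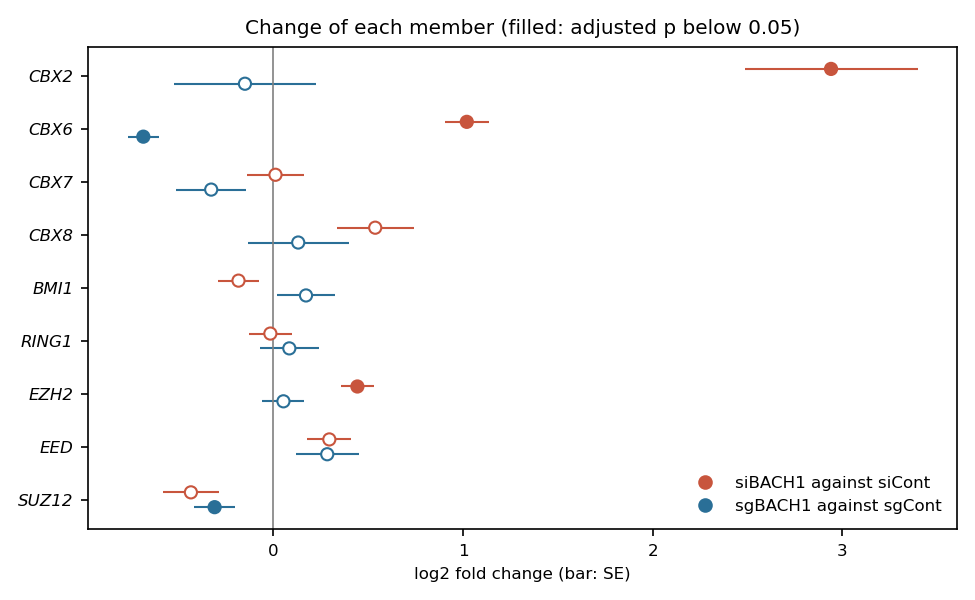
Log2 fold change of each Polycomb gene for siBACH1 against siCont and sgBACH1 against sgCont; points are fitted values, bars are 1 standard error, and filled points were called. CBX2 lies at 2.94 and -0.15, and CBX6 at 1.02 and -0.69.

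The experiments share no libraries, and the knockout difference minus the siRNA difference was fitted over all 12. It was -3.10 ± 0.60 for CBX2, -1.71 ± 0.15 for CBX6 and -0.40 ± 0.13 for EZH2, the 3 members called of 9, where 23.6% of 15644 genes were called. Nothing is read from these calls, which rest on the contrasts that chose the members. The call of EZH2 was lost with no filter on low counts and on leaving out any of 9 libraries (-0.43 to -0.35), the exceptions being siBACH1 replicate 1, siCont replicate 2 and sgCont replicate 2. For the remaining 6 genes the difference ran from -0.41 (CBX8) to 0.35 (BMI1), none called. The experiments differ in agent, time and selection together, which cannot be told apart.

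EZH2 is known to vary with cell proliferation, so a list of 24 cell cycle genes was set beside it; 23 were matched. Their summed level was 4126 to 4336 CPM in siBACH1 and 3623 to 4054 CPM in siCont, groups that did not overlap, and 4403 to 4446 CPM in sgBACH1 and 4361 to 4494 CPM in sgCont, which did. Abundant genes weigh most in such sums: MKI67 alone had a mean of 952.2 CPM in siBACH1 and 703.0 in siCont. In siBACH1, 6 of the 23 rose, among them MKI67 (log2 0.43) and MCM2 (0.45), and 4 fell, among them RRM2 (-0.55) and CCNB1 (-0.49). In sgBACH1, 3 rose and 1 fell. Over all tested genes 10.9% rose and 13.0% fell in siBACH1, and 11.3% and 12.3% in sgBACH1. The part of proliferation in the EZH2 levels was not tested.

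CBX2 and CBX8 lie side by side on chromosome 17. Of the 5 nearest genes before CBX2 that were tested in both fits, only C1QTNF1 was called in the siRNA comparison (log2 -1.51 ± 0.12, 3′ UTR match present). These genes are not close to CBX2: ENGASE, the nearest of the 5, ends at chr17:79088599 and CBX2 starts at chr17:79778132. ENGASE was at 0.64 ± 0.23 with siRNA and 0.00 ± 0.21 with the guide, not called. In the knockout comparison LGALS3BP fell (-0.49 ± 0.09) and CANT1 rose (0.44 ± 0.08). Over the 100 nearest tested genes, the median log2 fold change around CBX2 was 0.14 with siRNA, with 17 genes higher and 4 lower. Over all tested genes 10.9% were higher and 13.0% lower. With the guide the median around CBX2 was -0.01, with 12 genes higher and 15 lower, beside 11.3% and 12.3% over all tested genes. Around CBX6 the median was 0.00 with siRNA (8 higher, 9 lower) and -0.11 with the guide (9 higher, 19 lower).

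The genes whose log2 CPM followed CBX2 most closely over the 6 siRNA libraries were UBE2D4, PRKD2, FBXO34, RETREG2 and SAPCD2, with Pearson's r from 0.998 to 0.999. These points share the split between the groups and the low siCont replicate 2, and the siRNA log2 fold changes of the 5 genes were 0.26 to 0.79. Among the members, r with CBX2 over these libraries was 0.97 for CBX6, 0.79 for EZH2, 0.54 for EED, 0.51 for CBX8, 0.45 for CBX7, -0.12 for RING1, -0.80 for BMI1 and -0.94 for SUZ12. Over the 6 knockout libraries it was 0.38 for CBX8, 0.36 for CBX6, 0.18 for SUZ12, -0.20 for CBX7, -0.26 for RING1, -0.37 for EED, -0.43 for BMI1 and -0.73 for EZH2, so the sign differed between the experiments for EZH2, EED, CBX7 and SUZ12. In the knockout experiment the closest genes were WASF4P, ENSG00000271709, CUL9, CCDC107 and PUS7, at 0.968 to 0.989, so the closest 5 had no gene in common between the experiments. These are descriptions over 6 libraries. The 5 genes of each experiment were picked as the highest among tested genes that passed a floor on mean level and had a name in the annotation.

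A list of 44 other Polycomb genes was set beside the members, of which 42 were matched and 39 tested. With siBACH1, 4 of the 39 rose, 8 fell and 27 were not called; with sgBACH1, 4 rose, 5 fell and 30 were not called. Over all tested genes 10.9% rose and 13.0% fell with siBACH1, and 11.3% rose and 12.3% fell with sgBACH1. The median log2 fold changes were -0.01 and 0.06. Of the 8 genes that fell with siBACH1, 7 carried a 3′ UTR match, of the 4 that rose 1 did, and of the 27 not called 9 did. With sgBACH1 the match was present in 2 of the 5 that fell and 2 of the 4 that rose. Whether the siRNA acted through these matches was not tested.

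Among canonical PRC1 genes besides the members (5 tested), PHC2 and PHC3, Polyhomeotic subunits that form polymers, fell in both comparisons. PHC3 went from 48.7 to 25.0 CPM with siBACH1 (log2 -0.97 ± 0.11) and from 81.7 to 61.7 CPM with sgBACH1 (-0.40 ± 0.11). In the knockout comparison the 100 genes nearest PHC3 had a median of -0.36, with 2 higher and 35 lower, and its call was lost without sgBACH1 replicate 2 (-0.32). PHC2 was at -0.49 ± 0.10 and -0.27 ± 0.08, and the latter call was lost on leaving out any of 4 libraries (sgBACH1 replicates 1 and 2, sgCont replicates 1 and 3). SCML2, a PRC1-associated protein, rose from 1.56 to 4.16 CPM with siBACH1 (1.42 ± 0.27) and was at 0.29 ± 0.47 with the guide. RNF2, the catalytic alternative to RING1, was at -0.29 ± 0.11 and -0.35 ± 0.14, not called in either.

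Variant PRC1 lacks a CBX reader and is built around other PCGF proteins with RYBP or YAF2. Of its 14 tested genes, none rose and 2 fell with siBACH1, and 3 rose and 2 fell with sgBACH1. YAF2 fell from 16.4 ± 2.97 to 5.06 ± 0.236 CPM with siBACH1 (SD, n = 3; log2 -1.70 ± 0.18, edgeR adjusted p = 0.000199) and was at 0.14 ± 0.22 with the guide. PCGF5 fell from 37.6 to 15.5 CPM (-1.28 ± 0.21) and from 59.1 to 39.8 CPM (-0.57 ± 0.11). With siBACH1 the 100 genes nearest YAF2 had a median of -0.16, with 7 higher and 24 lower. Those nearest PCGF5 had a median of -0.195, with 5 higher and 16 lower. Over all tested genes 10.9% were higher and 13.0% lower. BCORL1, a corepressor of a variant complex, rose from 10.2 ± 0.524 to 37.5 ± 1.53 CPM with sgBACH1 (1.87 ± 0.16, edgeR adjusted p = 1.44e-09) and was at 0.41 ± 0.16 with siBACH1, not called. The 100 genes nearest BCORL1 on chromosome X had a knockout median of 0.83, with 59 higher and none lower, so genes of that neighbourhood were higher together. Its relative BCOR rose with sgBACH1 (0.79 ± 0.12) within a neighbourhood at -0.05. PCGF6 rose with sgBACH1 (0.89 ± 0.30; lost with no filter, 0.88, and on leaving out any of 4 libraries, sgBACH1 replicates 1 to 3 and sgCont replicate 2), and FBRS fell (-0.48 ± 0.11; 100 nearest genes -0.22).

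Of 9 tested PRC2 genes besides the core, LCOR and MTF2 fell with siBACH1 and only LCOR was called with sgBACH1. LCOR, whose locus also encodes a PRC2 accessory protein, had 33.86, 36.41 and 41.67 CPM in siBACH1 and 91.60, 120.8 and 96.44 CPM in siCont. With the guide it had 94.92, 86.96 and 93.31 CPM, and with the control guide 73.97, 73.69 and 63.80 CPM. Thus LCOR fell with siRNA (log2 -1.47 ± 0.13, edgeR adjusted p = 6.73e-05) and rose with the guide (0.38 ± 0.10, edgeR adjusted p = 0.00466). MTF2, which helps recruit PRC2, was at -0.47 ± 0.12 and 0.36 ± 0.18; its siRNA call was lost without any 1 siBACH1 library or siCont replicate 3 (-0.50 to -0.42). EZH1, the alternative methyltransferase, was at 0.22 ± 0.12 and 0.30 ± 0.19, not called.

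Among 11 tested opponents of Polycomb, 3 rose and 2 fell with siBACH1, and 1 fell with sgBACH1. NSD2, an H3 lysine 36 methyltransferase, rose from 195.9 to 295.3 CPM with siBACH1 (0.59 ± 0.07). ASXL1, the partner of the H2A deubiquitinase BAP1, rose with siBACH1 (0.48 ± 0.09) and fell with sgBACH1 (-0.33 ± 0.08). BAP1 was at 0.30 ± 0.08 with siBACH1, a call lost on leaving out any library other than siCont replicate 2 (0.27 to 0.34). The deubiquitinase USP16 fell with siBACH1 (-0.78 ± 0.14), and NSD1, also an H3 lysine 36 methyltransferase, was at -0.32 ± 0.09, a call lost on leaving out any library other than siCont replicate 2 (-0.33 to -0.26).

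**Figure D4:**
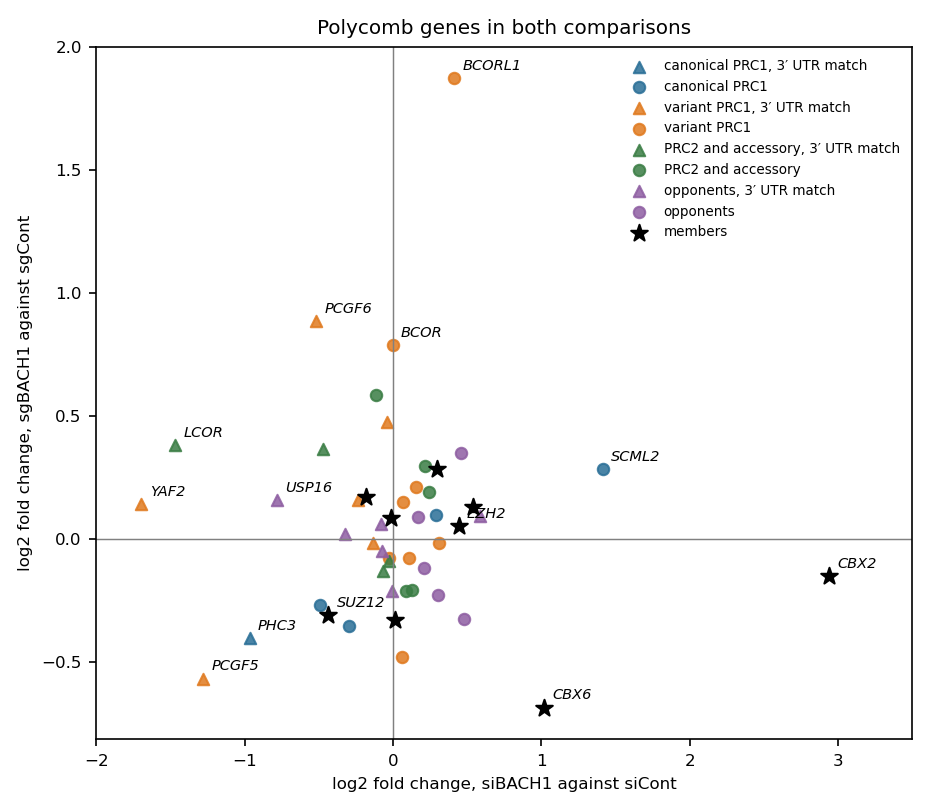
Log2 fold change of each tested Polycomb gene for siBACH1 against siCont (horizontal) and sgBACH1 against sgCont (vertical), with the 9 genes as black stars, other Polycomb genes coloured by role, and triangles where the 3′ UTR holds a match. CBX2 lies farthest right at 2.94, BCORL1 highest at 1.87, and YAF2 farthest left at -1.70.

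HP1 proteins are the other chromobox family; they read methylated lysine 9 of H3. CBX5 (HP1 alpha) fell from 292.8 ± 11.2 to 149.3 ± 9.06 CPM with siBACH1 (SD, n = 3; log2 -0.98 ± 0.08) and from 493.7 ± 37.7 to 258.7 ± 8.09 CPM with sgBACH1 (-0.93 ± 0.07). Its 3′ UTR carries matches, and in the knockout comparison the 100 genes nearest it had a median of -0.35, with 4 higher and 41 lower. CBX1 (HP1 beta) rose with siBACH1 (0.48 ± 0.11; lost without siBACH1 replicate 2 or 3, 0.42 and 0.47) and was at -0.18 ± 0.12 with the guide. CBX3 (HP1 gamma) was not called in either comparison (0.09 ± 0.07 and 0.12 ± 0.09).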

How the data were processed

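RNA of 12 AsPC-1 libraries was depleted of ribosomal RNA and sequenced on an Ion Proton, per the labels' protocols. The authors deposited raw counts of reads per gene, made with HTSeq 0.9.1 and SAMtools on hg19 per the submitters' processing notes; the aligner, counting mode and strand setting are not stated there. Groups come from the sample titles. The test was edgeR's two-sided quasi-likelihood test (version 4.0.16, R 4.3.3) after TMM scaling and filterByExpr with a minimum count of 10; p-values were adjusted by Benjamini-Hochberg across every gene tested and called below 0.05. Each experiment was fitted alone, and the difference of responses over all 12 libraries. CPM are on 1 TMM scale over the 12 libraries, and the CBX2 ratio adds 0.5 counts. Correlations used log2 CPM with a prior count of 2. DESeq2 1.42.0, voom of limma 3.58.1, other scalings, other filters, a replicate block and leave-outs were tried. Of 57820 identifiers, 51996 took a current symbol; PCGF2, EPOP, UHRF1 and PECAM1 were not matched. Coordinates and 3′ UTRs are GENCODE 29 on GRCh38, never set against hg19.

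The members and lists (other Polycomb by role, HP1, HOX and CDKN, cell cycle, cell type markers) were chosen with earlier results of these data known. Genes named were all members, called genes of the Polycomb and HP1 lists with up to 4 uncalled ones, the 4 largest called HOX or CDKN changes per comparison, the 5 nearest tested genes before CBX2 and the 5 most correlated with it. A planned gene is not reported here, so the CBX2 ratio, the list counts and the neighbours are given without it. PHC1, EZHIP and ASXL3 did not pass the filter. P-values measure only the spread between these libraries. The fits were tested on simulated data. Of 1.5-fold changes, 41% were recovered for siBACH1, 48.3% for sgBACH1 and 15.5% for the difference of responses. Of 4-fold changes, 87.7%, 87.2% and 81.4% were recovered in the same order. A gene that was not called may thus still have changed.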

Additional observations from a re-analysis of the deposited data

Results flagged for a closer look

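These Polycomb and HP1 genes had responses that differed between the experiments by edgeR's test of the knockout difference minus the siRNA difference. Of the 9 members 3 were called, all negative. Of 39 other Polycomb genes tested, 9 were positive and 4 negative, and of 3 HP1 genes 1 was negative. Over all genes, 23.6% of 15644 were called either way, and nothing is read from these counts. On the log2 scale the knockout difference minus the siRNA difference was -3.10 for CBX2, -1.71 for CBX6 and -0.40 for EZH2. These 3 were chosen with these contrasts known. Among genes that fell with siBACH1, it was 1.84 for LCOR, 1.83 for YAF2, 0.93 for USP16, 0.83 for MTF2, 0.71 for PCGF5 and 0.56 for PHC3. It was 1.46 for BCORL1, 1.39 for PCGF6 and 0.78 for BCOR, which rose with sgBACH1. It was -0.81 for ASXL1, -0.66 for CBX1, -0.55 for FBRS, -0.53 for BAP1 and -0.50 for NSD2. The difference of PCGF5 was 0.41 and not called without siCont replicate 2, and that of PHC3 was not called without siBACH1 replicate 1, sgBACH1 replicate 1 or sgCont replicate 3 (0.48 to 0.52). Leaving out siBACH1 replicate 1 ended the call of FBRS (-0.47). What in the treatments goes with these differences was not tested.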

How the results depend on the processing

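Genes called with siBACH1 numbered 3481, 2002 to 5121 on leaving out single libraries, 3196 with the replicate block and 1934 without genes carrying a 3′ UTR match, an alternative added after seeing the data that tests fewer genes; the log2 fold changes there were 2.89 for CBX2, 0.97 for CBX6 and 0.39 for EZH2. Members called with siBACH1 numbered 3, and 3 to 6 on leave-outs. Members called with sgBACH1 numbered 2, 1 with no filter on low counts and 1 to 2 on leave-outs; genes called with sgBACH1 numbered 3407, 2500 to 3586 on leave-outs and 3530 with the replicate block. Deviations of same-numbered libraries had correlations of -0.01 to 0.04, and those of different-numbered libraries -0.05 to 0.03. Whether same-numbered libraries shared a culture cannot be told from these values. The block ended the EZH2 call in the difference of responses (-0.39) and the BAP1 call with siBACH1 (0.30). The SUZ12 difference of responses, never called, was -0.08 without siCont replicate 2. No called value of the Polycomb and HP1 genes changed sign under any alternative tried. Calls of the HOX, cell cycle, neighbour and marker genes were not followed across the alternatives. CBX2 rests on 4 to 312 counts per library, so its size is less precise than that of CBX6.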

Other observations

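HOX clusters and CDKN2A are textbook Polycomb targets. Of 42 HOX and CDKN genes in the tables, 29 were tested with siBACH1, where 5 rose and 1 fell, and 27 with sgBACH1, where 3 rose and 3 fell. Over all tested genes 10.9% rose and 13.0% fell with siBACH1, and 11.3% and 12.3% with sgBACH1. With siBACH1 the largest changes were HOXC6 (6.37 to 10.8 CPM, log2 0.75 ± 0.18), HOXC8 (0.65 ± 0.21) and HOXC11 (0.59 ± 0.11), all higher, and HOXA3 (-0.49 ± 0.12), lower. With sgBACH1 they were HOXC12 (2.22 ± 0.73, from a mean of 0.521 to 2.53 CPM) and HOXB13 (0.73 ± 0.22), higher, and HOXA11 (-0.57 ± 0.19) and HOXC10 (-0.52 ± 0.18), lower. HOXC12 had only 28 counts over the sgCont libraries, and its groups overlapped (0.141 to 1.24 CPM in sgCont, 1.16 to 3.63 in sgBACH1). The 100 genes nearest HOXC10 had a median of -0.35 in the knockout comparison. CDKN2A stood at means of 96.9 to 113.0 CPM in the 4 groups and was not called in either comparison (0.04 ± 0.08 and -0.14 ± 0.09).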
